A study of Arabidopsis thaliana with 15 samples.

Results

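The effect of the uvr8-1 mutation on the response of Arabidopsis leaves to UV-B was measured as a difference of responses, also called the interaction. It is the change from white light to UV-B in uvr8-1 minus the same change in wildtype, in log2 units, so a negative value means that the response of uvr8-1 lay below that of wildtype. The members are 12 of the 15 ATH1 arrays of the series, 3 in each of 4 groups: uvr8-1 under UV-B, uvr8-1 in white light, wildtype under UV-B and wildtype in white light. All plants were of the accession Landsberg erecta and had been kept for 3 weeks on compost, at 21 °C and with uninterrupted white fluorescent light at 25 µmol m-2 s-1. The UV-B groups then received UV-B of 3 µmol m-2 s-1 for 4 h, and the white light groups had no further treatment. A single mutant allele stands for the loss of UVR8, and the labels do not say whether the UV-B plants stayed under white light. The other 3 arrays, of hy5-1 under UV-B, entered the linear model only to estimate the spread. The labels call the 3 arrays of a group biological replicates, and the p-values measure the spread among them.

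UVR8 is a receptor of UV-B that absorbs the radiation through tryptophans of its own protein. On absorption it changes from a dimer to monomers, which bind the ubiquitin ligase COP1 and so allow the bZIP transcription factor HY5 and its homologue HYH to accumulate and act. In leaves this pathway is known for inducing the enzymes that make flavonoid and sinapate sunscreens, photoprotective proteins and feedback regulators. UV-B also acts on gene expression without UVR8, through damage, reactive oxygen and wound or defence signalling. The annotation used here pairs no probe set with UVR8 alone, so the mutated gene itself was not checked.

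On 189 of 22746 probe sets (0.831%) the response of uvr8-1 lay below that of wildtype, and on 6 (0.0264%) it lay above it. These calls are from limma at an adjusted p under 0.05 without a fold minimum, and at an unadjusted p under 0.05 there were 1018 negative and 591 positive differences. The negative differences ran from −7.11 to −0.63 with a median of −1.78. Of them, 171 were at least 2-fold, 82 at least 4-fold and 27 at least 8-fold. The positive ones ran from 0.73 to 1.81. Only 83 of the 189 and 3 of the 6 probe sets are paired with a single gene, while 102 and 3 are paired with none, so many of the strongest differences can be given by probe set only. The fit behind these calls does not use the pairing of equally numbered arrays. With the replicate number as a block, on the 12 arrays alone, there were 191 negative calls, 145 of them among the 189. The same 12 arrays without the block gave 146. Without wildtype UV-B replicate 3 the negative calls numbered 294. With the 3' to 5' index of the control probe sets as a covariate they numbered 128. That index, which rises where transcripts are represented unevenly, was 1.93 ± 0.02 in uvr8-1 under UV-B, 2.18 ± 0.16 in uvr8-1 in white light, 1.88 ± 0.10 in wildtype under UV-B and 1.83 ± 0.04 in wildtype in white light (SD, n = 3 each).

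The genotypes differed under UV-B on these probe sets, and in white light their differences were at most 0.60 log2 units in size. Under UV-B, 188 of the 189 probe sets were called lower in uvr8-1 than in wildtype, against 1.99% of all probe sets, with a median difference between genotypes of −1.75. In white light 0 of the 189 were called in either direction, where 0.00440% of all probe sets were called lower in uvr8-1 and 0.0132% higher. Their white light differences lay between −0.60 and 0.44 with a median of 0.03. Of the 6 positive probe sets, 5 were called higher in uvr8-1 under UV-B, against 0.422% of all, and 0 were called in white light. Both counts under UV-B use the arrays that gave the interaction calls and describe them without adding support. The counts of 0 in white light are near the share over all probe sets and are no result about these. The plot of genotype differences shows the values in each light condition.

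**Figure D1:**
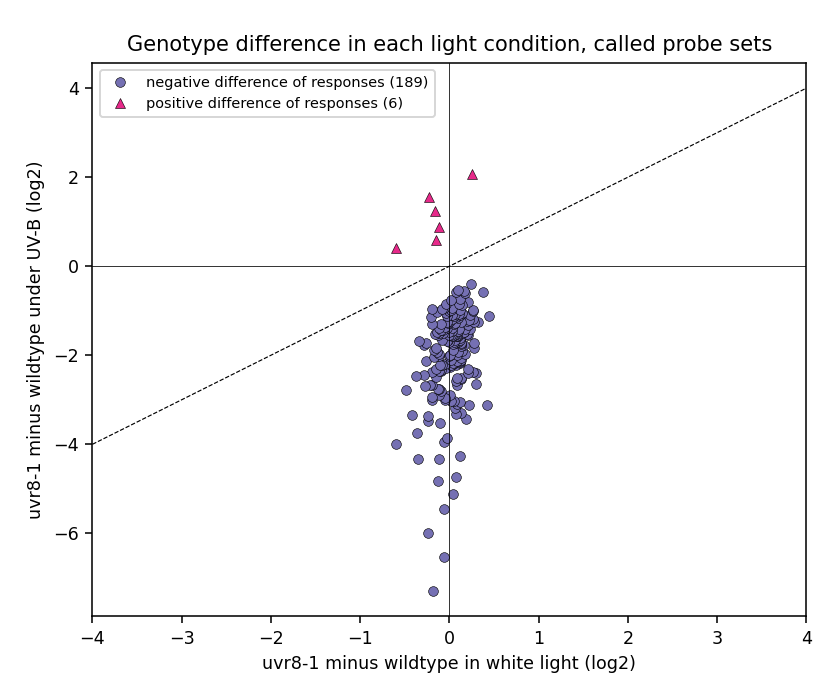
Difference between uvr8-1 and wildtype in white light (x axis, log2) and under UV-B (y axis, log2) for the probe sets called in the interaction; circles are the 189 negative and triangles the 6 positive differences of responses, and the dashed line marks equal differences. All 189 circles lie below the line, as the sign of their calls requires, and between −0.60 and 0.44 on the white light axis.

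Split by the response of each genotype, the 189 negative calls fell into 5 classes, drawn in the plot of the responses against each other. A rise of wildtype was not called in uvr8-1 on 84 probe sets (39 genes), termed rises lost, and was smaller but called on 24 (13 genes), termed reduced. On 53 probe sets (22 genes) wildtype rose and uvr8-1 fell, termed reversed. On 24 (7 genes) only uvr8-1 fell, and on 4 (2 genes) both fell and uvr8-1 fell further. Thus 81 of the 189 were called as falls in uvr8-1, and 37 of these falls were at least 2-fold. Over all probe sets 19.0% fell and 12.9% rose in uvr8-1 under UV-B, and 18.3% fell and 12.2% rose in wildtype. The choice of the 189 uses the same uvr8-1 arrays, so nothing is read from the 81 beyond the count. It was 175 without wildtype UV-B replicate 3. It was 49, 53 and 51 when uvr8-1 white light replicate 1, 2 or 3 was left out, and 52 without uvr8-1 UV-B replicate 2. With the replicate number as a block, on the 12 arrays alone, it was 84, with 64 reversed rises and 14 falls in uvr8-1 alone. Without the block those 12 arrays gave 63, with 49 reversed rises and 12 falls in uvr8-1 alone.

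**Figure D2:**
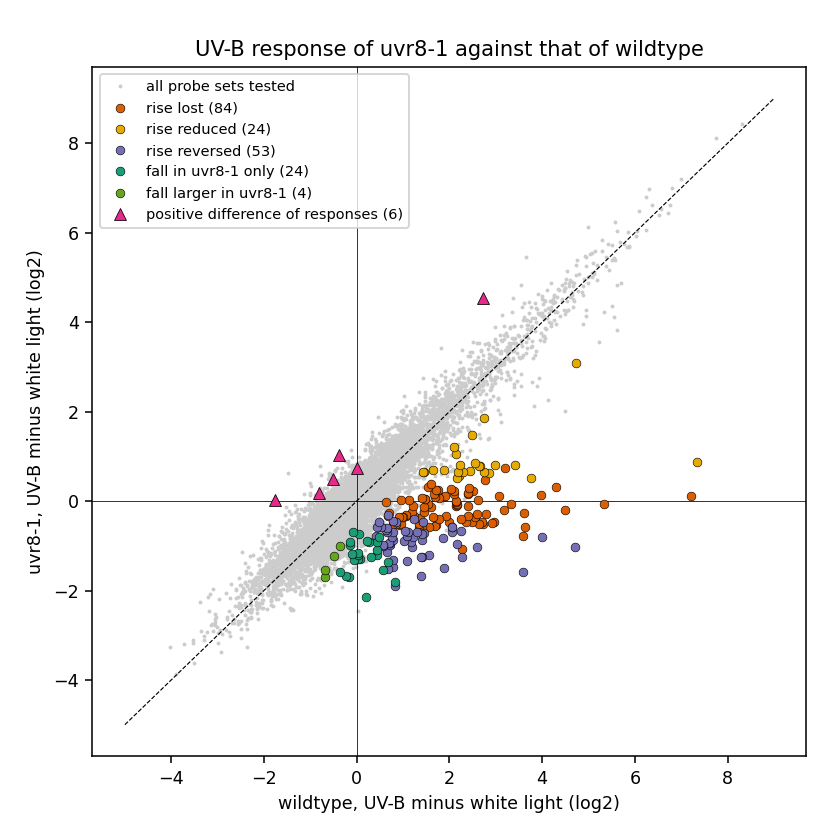
UV-B response of uvr8-1 (y axis, log2) against that of wildtype (x axis, log2), with 1 point per probe set; grey points are all probe sets tested, coloured circles the 5 classes of negative calls and triangles the 6 positive calls, and the dashed line marks equal responses. Lost rises (84) run from −1.07 to 0.74 on the uvr8-1 axis, with a median of −0.21. Reversed rises (53) lie below 0 and reduced rises (24) above 0.

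The 3 wildtype UV-B arrays were also ranked on each of these probe sets. Wildtype UV-B replicate 2 had the highest of the 3 values on 144 of the 189 (76.2%) and the lowest on 0, and replicate 3 had the lowest on 135 (71.4%). On the 1473 probe sets that rose at least 2-fold in wildtype with no interaction call, replicate 3 had the highest value on 59.9%, replicate 2 on 31.4% and replicate 1 on 8.7%. Replicate 1 had the lowest value on 28.6% of the 189 and on 70.3% of those 1473. The sets compared are unlike, as only 128 of the 189 rose at least 2-fold in wildtype, and both were chosen on these same arrays. The difference between these orders was not tested, and the probe sets of an array are not independent of each other.

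The rises lost in uvr8-1 reached from the largest responses of wildtype to small ones. Their median response was −0.21 in uvr8-1 and 1.91 in wildtype, and 55 of the 84 estimates in uvr8-1 were below 0. A response that is not called need not be absent. The upper 95% bound of the uvr8-1 response was under 50% of the wildtype rise on all 84, which the choice of the class on the same arrays largely fixes and which therefore shows nothing further. The whole interval lay within 25% of the wildtype rise in both directions on 12 of the 84. The class numbered 61 with the index covariate and 66 without the hy5-1 arrays.

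Probe set 258321_at, which the annotation pairs with no gene, had the largest difference. It read 3.72, 3.67 and 3.52 in uvr8-1 under UV-B and 3.92, 3.33 and 3.33 in uvr8-1 in white light. In wildtype it read 10.49, 11.39 and 10.90 under UV-B and 3.94, 3.51 and 3.68 in white light. Every wildtype UV-B array stood far above the other 9, which overlapped each other. The difference of responses was −7.11 ± 0.33 (SE, limma adjusted p = 2.7e-07). Probe set 253496_at, also unpaired, changed by −0.06 ± 0.40 in uvr8-1 and 5.33 ± 0.40 in wildtype (difference −5.39 ± 0.57).

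Among lost rises of pathway genes, UGT84A1, which glucosylates sinapate and other hydroxycinnamates, had 3.44, 3.63 and 3.44 in uvr8-1 under UV-B and 3.40, 3.33 and 3.38 in uvr8-1 in white light. In wildtype it had 7.05, 8.18 and 6.87 under UV-B and 3.59, 3.33 and 3.29 in white light. Only the wildtype UV-B arrays were high, and the 3 other groups lay under 3.74, a level that 40% of probe sets do not exceed on average. The size of the difference (−3.83 ± 0.37, adjusted p = 0.000132) thus depends on values near background. UGT78D2, the flavonoid 3-O-glucosyltransferase, was well above that limit. It read 5.66, 5.99 and 5.81 in uvr8-1 under UV-B and 6.40, 6.20 and 6.23 in uvr8-1 in white light, against 8.63, 9.72 and 8.96 in wildtype under UV-B and 6.35, 6.10 and 5.97 in wildtype in white light. All uvr8-1 UV-B values but one were lower than every white light value of either genotype, and the fall of 0.46 in uvr8-1 did not pass (95% interval −0.95 to 0.03).

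AT3G52740, known as BIC1, encodes an inhibitor of cryptochrome blue-light receptors. Its values were 3.12, 2.74 and 2.98 in uvr8-1 under UV-B, 3.28, 3.42 and 3.61 in uvr8-1 in white light, 5.88, 7.34 and 6.20 in wildtype under UV-B and 3.32, 3.48 and 3.83 in wildtype in white light. The wildtype UV-B arrays stood apart and those of uvr8-1 under UV-B lay below all white light arrays, with a difference of responses of −3.42 ± 0.44 (adjusted p = 0.00123). BIC1 lay under the limit of 3.74 on every uvr8-1 array, so the order of these low values is less certain. Its relative BIC2 (AT3G44450) differed by −2.29 ± 0.65, which did not pass (adjusted p = 0.21). It read 4.13, 4.22 and 3.49 in uvr8-1 under UV-B and 6.60, 7.62 and 6.37 in wildtype under UV-B, with no overlap. The white light values of BIC2 spread from 2.84 to 4.56 in uvr8-1 and from 3.86 to 5.33 in wildtype. Without uvr8-1 white light replicate 2, at 2.84, the adjusted p was 0.0407. No other fit without 1 array called BIC2, and the adjusted p reached 0.485 without wildtype UV-B replicate 2.

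LPR1, a ferroxidase known from the root response to low phosphate, had 3.42, 3.32 and 3.17 in uvr8-1 under UV-B and 3.33, 3.11 and 3.43 in uvr8-1 in white light. It had 5.86, 6.51 and 5.07 in wildtype under UV-B and 3.36, 3.17 and 3.08 in wildtype in white light. The uvr8-1 arrays overlapped between the light conditions, at a response of 0.01 ± 0.28 (95% interval −0.59 to 0.61), while wildtype rose by 2.61 ± 0.28. Outside wildtype under UV-B all LPR1 values lay under 3.74, so the flat response in uvr8-1 is read near background. AT1G19140, which encodes a protein like the ubiquinone synthesis factor COQ9, changed by 0.08 ± 0.15 in uvr8-1 and 1.87 ± 0.15 in wildtype (difference −1.79 ± 0.21). GSTU28, a glutathione transferase, read 4.56, 4.00 and 4.00 in uvr8-1 under UV-B, 4.07, 3.87 and 4.14 in uvr8-1 in white light, 5.73, 6.39 and 5.77 in wildtype under UV-B and 4.12, 3.57 and 3.89 in wildtype in white light (difference −1.94 ± 0.31, adjusted p = 0.00692). Again only the wildtype UV-B arrays were high.

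In several lost rises the uvr8-1 estimate was under 0 without being called. AT5G62210, which encodes an embryo-specific protein 3 family member, had the largest difference of any gene, −4.37 ± 0.42, with 3.51, 3.46 and 3.71 in uvr8-1 under UV-B and 4.51, 4.40 and 4.14 in uvr8-1 in white light, against 7.17, 8.63 and 7.64 in wildtype under UV-B and 4.01, 4.73 and 3.96 in wildtype in white light. All its uvr8-1 UV-B values lay under all its white light values, yet the response of uvr8-1, −0.79 ± 0.30, missed the threshold (adjusted p = 0.0618). AT2G25530, an AFG1-like ATPase gene, changed by −0.41 ± 0.18 in uvr8-1 and 2.24 ± 0.18 in wildtype. AT5G10730 changed by −0.36 ± 0.15 in uvr8-1 and 1.64 ± 0.15 in wildtype, and AT1G57770 by −0.34 ± 0.21 in uvr8-1 and 1.93 ± 0.21 in wildtype.

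AT3G57020, a strictosidine synthase-like gene, differed by −3.38 ± 0.42 and AT5G42760 by −3.23 ± 0.57. AT1G16260, a wall-associated kinase-like gene, was at −2.29 ± 0.43, and AT5G55570 and AT2G41040 were each at −2.24. With the replicate number as a block on the 12 arrays, AT5G42760 (adjusted p = 0.0628) and AT5G55570 (0.104) were not called. On those arrays without the block AT5G42760 was called (0.0495) and AT5G55570 was not (0.0874). Leaving out 1 of the 12 arrays ended the call of AT1G16260 in 7 fits, of AT5G55570 in 7 and of AT2G41040 in 8, in each case with the highest adjusted p (0.071, 0.0946 and 0.0761) without wildtype UV-B replicate 2.

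**Figure D3:**
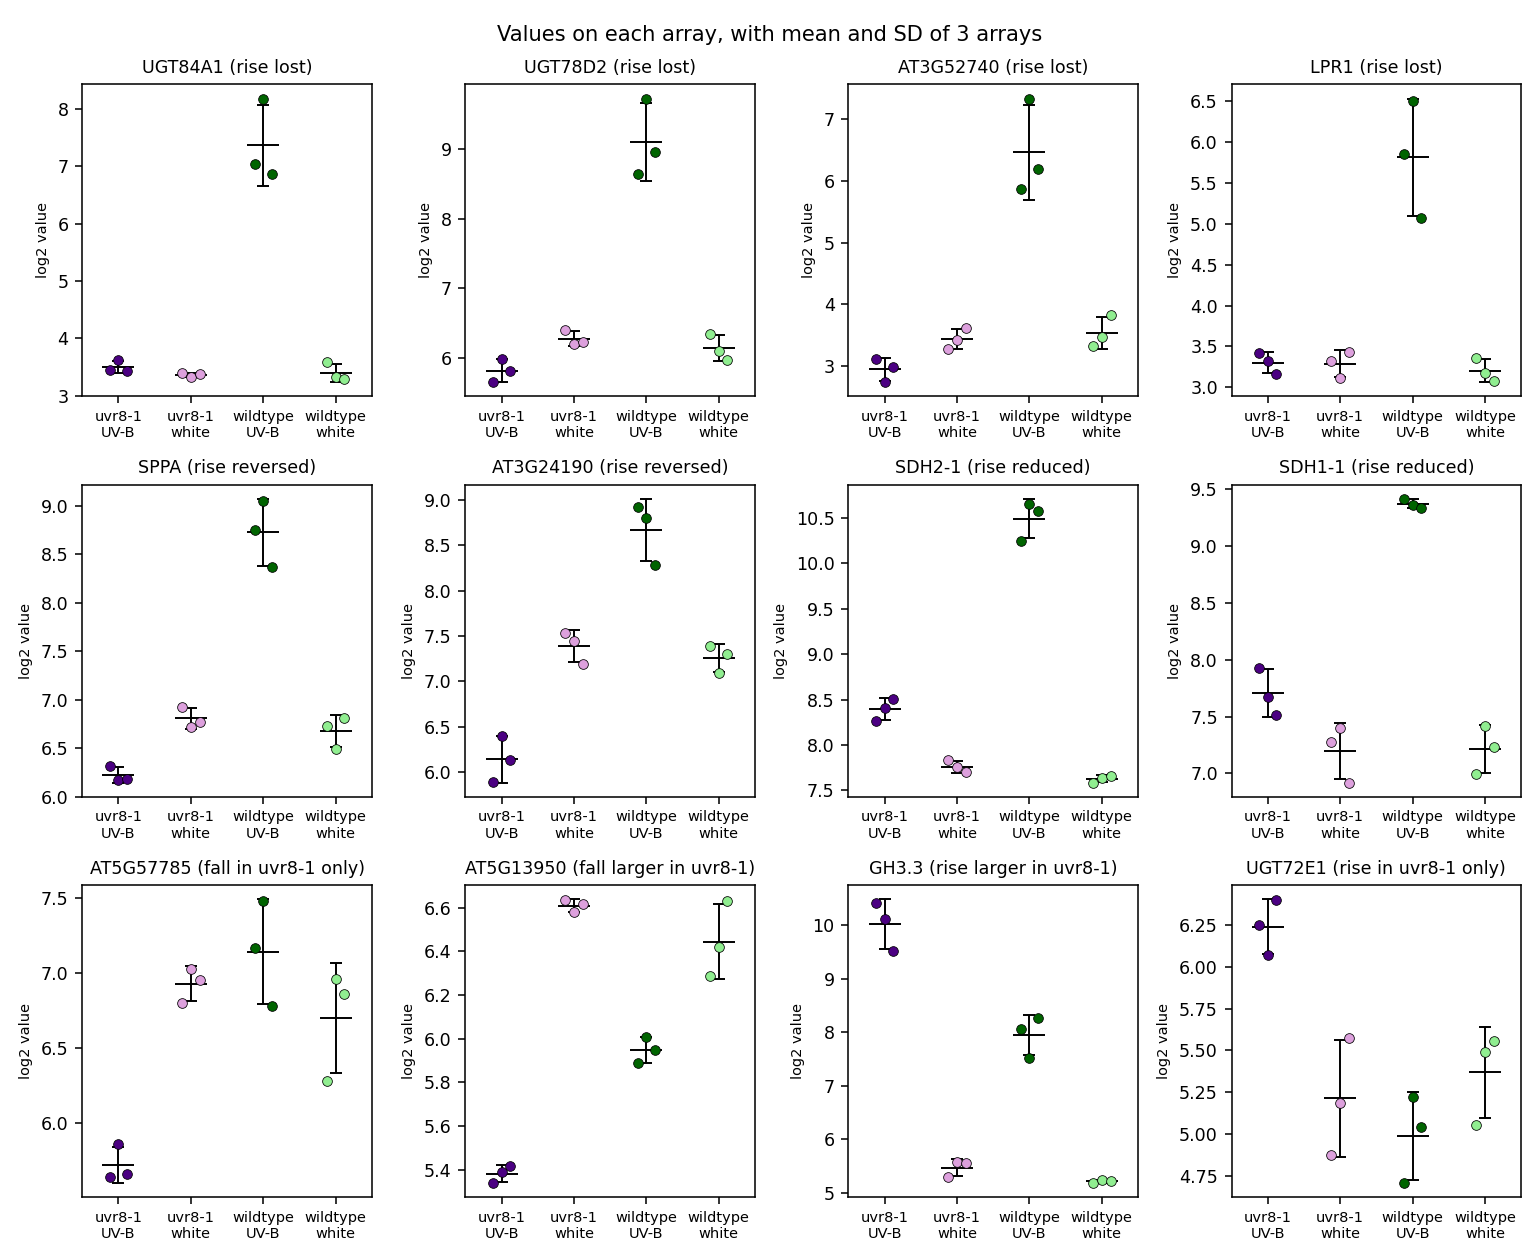
Log2 value on each array (points) with the mean and SD of 3 arrays (bar and whiskers) for 12 genes, in the order uvr8-1 UV-B, uvr8-1 white light, wildtype UV-B and wildtype white light; each panel has its own y axis, which does not start at 0, and names the class of the gene. The wildtype UV-B arrays stand alone in the panels of lost rises, and the uvr8-1 UV-B arrays stand lowest for SPPA and AT3G24190 and highest for GH3.3 and UGT72E1.

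Reversed rises had a median response of −0.82 in uvr8-1 and 1.09 in wildtype. SPPA, a protease of the thylakoid membrane, had 6.31, 6.17 and 6.18 in uvr8-1 under UV-B and 6.93, 6.71 and 6.78 in uvr8-1 in white light. It had 8.76, 9.05 and 8.37 in wildtype under UV-B and 6.73, 6.49 and 6.81 in wildtype in white light. White light arrays of the genotypes overlapped, and UV-B moved them apart in opposite directions, by −0.58 ± 0.16 in uvr8-1 and 2.05 ± 0.16 in wildtype (difference −2.63 ± 0.22, adjusted p = 4.04e-05).

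AT3G24190, an ABC1-type atypical kinase, read 5.89, 6.40 and 6.14 in uvr8-1 under UV-B, 7.53, 7.45 and 7.19 in uvr8-1 in white light, 8.92, 8.80 and 8.28 in wildtype under UV-B and 7.39, 7.09 and 7.30 in wildtype in white light. Its fall in uvr8-1 (−1.25 ± 0.17) was close in size to its rise in wildtype (1.41 ± 0.17). AT4G36530, an alpha/beta hydrolase, changed by −1.03 ± 0.19 in uvr8-1 and 1.20 ± 0.19 in wildtype. AT1G06690, an oxidoreductase of plastoglobules, the lipid bodies of chloroplasts, changed by −0.82 ± 0.24 in uvr8-1 and 1.87 ± 0.24 in wildtype. For both genes, too, all uvr8-1 UV-B arrays lay under all wildtype UV-B arrays.

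The largest reversal was that of the unpaired probe set 252123_at. It read 4.18, 4.55 and 4.59 in uvr8-1 under UV-B, 5.60, 5.69 and 5.13 in uvr8-1 in white light, 10.11, 11.01 and 10.14 in wildtype under UV-B and 5.76, 5.60 and 5.77 in wildtype in white light. The fall in uvr8-1 (−1.03 ± 0.23) was small beside the rise in wildtype (4.71 ± 0.23), and the 3 uvr8-1 UV-B arrays were the lowest of the 12.

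AT1G18660 had a difference of −2.64 ± 0.17 (adjusted p = 4.61e-06), from −0.58 ± 0.12 in uvr8-1 and 2.05 ± 0.12 in wildtype. AT3G56290 changed by −0.95 ± 0.27 in uvr8-1 and 2.16 ± 0.27 in wildtype, and AT1G66330 by −0.87 ± 0.20 in uvr8-1 and 1.41 ± 0.20 in wildtype. AT4G33660 fell further in uvr8-1 (−1.48 ± 0.23) than it rose in wildtype (0.78 ± 0.23). For AT4G29590, AT3G62190 and AT4G03200 the falls in uvr8-1 were −0.77, −0.40 and −0.45, and the rises in wildtype were 1.09, 1.25 and 0.77. The fall of AT3G62190 was close to the threshold (adjusted p = 0.0465).

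AT5G35970 differed by −3.05 ± 0.59, and its white light values were spread widely, with 9.43, 8.00 and 8.86 in uvr8-1 and 9.03, 7.83 and 9.38 in wildtype. In both genotypes replicate 2 was the lowest of the white light arrays. Leaving out single arrays ended its call 6 times of 12, and its adjusted p reached 0.0828 when wildtype UV-B replicate 2 was left out. Of the 53 reversed probe sets, wildtype UV-B replicate 3 was the lowest of its group on 48 (90.6%), and without that array the class numbered 82.

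Where the rise was reduced and not lost, uvr8-1 kept a median of 29.7% of the wildtype response in log2 units, with median responses of 0.74 in uvr8-1 and 2.46 in wildtype. Both SDH2-1, the iron-sulfur subunit of mitochondrial succinate dehydrogenase, and SDH1-1, the flavoprotein subunit of the same enzyme, were in this class. SDH2-1 read 8.27, 8.41 and 8.51 in uvr8-1 under UV-B, 7.83, 7.76 and 7.70 in uvr8-1 in white light, 10.24, 10.65 and 10.57 in wildtype under UV-B and 7.59, 7.64 and 7.66 in wildtype in white light. No groups overlapped, and the uvr8-1 response of 0.63 ± 0.12 was 22.1% of the wildtype response of 2.86 ± 0.12 (difference −2.23 ± 0.17, adjusted p = 2.4e-05).

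SDH1-1 read 7.93, 7.67 and 7.51 in uvr8-1 under UV-B and 7.28, 7.39 and 6.92 in uvr8-1 in white light, against 9.41, 9.36 and 9.34 in wildtype under UV-B and 7.00, 7.42 and 7.23 in wildtype in white light. Its response of 0.51 ± 0.16 in uvr8-1 was 23.5% of the 2.15 ± 0.16 in wildtype, a share close to that of SDH2-1. The difference was −1.65 ± 0.23 (adjusted p = 0.00248).

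UGT73C1, a UDP-glycosyltransferase of the family that modifies xenobiotics and hormones, kept more of its response. It had 5.46, 6.19 and 6.07 in uvr8-1 under UV-B and 2.73, 2.70 and 3.05 in uvr8-1 in white light, against 7.08, 7.74 and 7.34 in wildtype under UV-B and 2.52, 2.66 and 2.80 in wildtype in white light. Both genotypes rose from a dim level, by 3.08 ± 0.20 in uvr8-1 and 4.73 ± 0.20 in wildtype, and their UV-B arrays did not overlap. At the other end, probe set 245306_at, unpaired, rose by 0.88 ± 0.24 in uvr8-1 and by 7.35 ± 0.24 in wildtype, so that uvr8-1 kept 11.9%.

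AT3G17800 rose by 0.80 ± 0.18 in uvr8-1 and 2.99 ± 0.18 in wildtype, and AT1G73650 by 0.65 ± 0.15 in uvr8-1 and 2.75 ± 0.15 in wildtype. The rises of AT5G19850 were 0.79 ± 0.21 in uvr8-1 and 2.64 ± 0.21 in wildtype, and those of AT5G04830 were 0.86 ± 0.15 in uvr8-1 and 2.55 ± 0.15 in wildtype. These 4 genes thus kept between 23.7% and 33.7% of the wildtype response. The class numbered 11 with the index covariate. It numbered 14 without wildtype white light replicate 3, 11 without uvr8-1 white light replicate 2 or 3, 15 without uvr8-1 UV-B replicate 1 or 3 and 11 without uvr8-1 UV-B replicate 2.

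Some probe sets fell under UV-B in uvr8-1 alone, with a median response of −1.20 in uvr8-1 and 0.06 in wildtype. RALFL32, which encodes a peptide of the RALF signalling family, had 5.37, 4.93 and 4.45 in uvr8-1 under UV-B and 6.25, 6.13 and 6.48 in uvr8-1 in white light. In wildtype it had 6.44, 7.30 and 6.73 under UV-B and 6.32, 5.87 and 6.24 in white light. Its fall in uvr8-1 (−1.37 ± 0.27) passed and its wildtype response of 0.68 ± 0.27 did not (adjusted p = 0.0718), although the wildtype arrays did not overlap. AT5G57785 had 5.64, 5.86 and 5.66 in uvr8-1 under UV-B, 6.80, 7.03 and 6.96 in uvr8-1 in white light, 7.16, 7.48 and 6.78 in wildtype under UV-B and 6.28, 6.96 and 6.86 in wildtype in white light. Only the uvr8-1 UV-B arrays stood apart (difference −1.64 ± 0.27, adjusted p = 0.0087).

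AT5G46580, which encodes a pentatricopeptide repeat protein of chloroplasts, fell by 0.98 in uvr8-1, with −0.14 ± 0.12 in wildtype. AT1G22550, a gene of the NRT1/PTR transporter family, was at −1.19 ± 0.16 in uvr8-1 and −0.10 ± 0.16 in wildtype. AT5G08050 was at −1.16 ± 0.17 in uvr8-1 and 0.04 ± 0.17 in wildtype, and AT2G32640 at −1.30 ± 0.20 in uvr8-1 and 0.07 ± 0.20 in wildtype. Where both genotypes fell, AT5G13950 was at −1.23 ± 0.09 in uvr8-1 and −0.50 ± 0.09 in wildtype, and AT4G17370 at −1.01 ± 0.09 in uvr8-1 and −0.37 ± 0.09 in wildtype.

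The calls of these falls depended on the model and on single arrays. The 24 falls in uvr8-1 alone became 8 with the index covariate and 12 without the hy5-1 arrays, and the 4 larger falls became 2 in either fit. With the replicate block, 14 probe sets fell in uvr8-1 alone, and that fit also lacks the hy5-1 arrays. In it RALFL32 (adjusted p = 0.0502), AT2G32640 (0.0774), AT5G08050 (0.0774), AT1G22550 (0.0929), AT5G46580 (0.0691) and AT4G17370 (0.0634) were not called. On the same 12 arrays without the block RALFL32 was called (0.0304). The other genes named were already not called there, at adjusted p from 0.0663 to 0.101. The 24 became 83 without wildtype UV-B replicate 3, 13 without wildtype white light replicate 2, between 5 and 9 without any one of the uvr8-1 white light arrays and between 10 and 14 without any one of the uvr8-1 UV-B arrays. Leaving out 1 array ended the calls of RALFL32 in 4 of 12 fits, of AT5G08050 and AT1G22550 in 8 each, of AT2G32640 in 9, of AT4G17370 in 10 and of AT5G46580 in 11. The highest adjusted p were 0.0632 for RALFL32 (without uvr8-1 white light replicate 3), 0.123 for AT5G08050 and 0.134 for AT2G32640 (both without wildtype UV-B replicate 2), 0.12 for AT1G22550 and 0.124 for AT4G17370 (both without uvr8-1 UV-B replicate 3) and 0.0804 for AT5G46580 (without uvr8-1 white light replicate 1). AT5G57785 and AT5G13950 kept their calls in all 12 such fits, and AT5G13950 was not called with an intensity trend. The 4 larger falls became 10 without wildtype UV-B replicate 3, 5 without uvr8-1 UV-B replicate 1, and 1 or 2 without any one of the other 10 arrays.

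Of the 6 positive differences, that of GH3.3 was the only one in which both genotypes rose. GH3.3 encodes an enzyme that joins auxin to amino acids and so lowers active auxin. It had 10.42, 10.12 and 9.52 in uvr8-1 under UV-B and 5.30, 5.57 and 5.56 in uvr8-1 in white light. It had 8.05, 7.53 and 8.26 in wildtype under UV-B and 5.18, 5.24 and 5.23 in wildtype in white light. No group overlapped another, and the rise was 4.55 ± 0.21 in uvr8-1 and 2.73 ± 0.21 in wildtype (difference 1.81 ± 0.30, adjusted p = 0.00853). This call held in all 12 fits without 1 array, at an adjusted p of at most 0.0289. It held narrowly with the block (adjusted p = 0.0496) and with the index covariate (0.0488), under which it was the single positive call. Leaving out all arrays of a replicate number ended it in 2 of 3 fits, with an adjusted p of up to 0.393.

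UGT72E1, which glucosylates coniferyl aldehyde in the phenylpropanoid pathway, rose in uvr8-1 alone. It read 6.25, 6.07 and 6.40 in uvr8-1 under UV-B, 4.88, 5.19 and 5.58 in uvr8-1 in white light, 4.71, 5.22 and 5.04 in wildtype under UV-B and 5.05, 5.49 and 5.56 in wildtype in white light. The uvr8-1 UV-B arrays lay above the other 9, which overlapped (difference 1.41 ± 0.27, adjusted p = 0.0238). AT3G01720, which encodes a galactosyltransferase that modifies serines of cell wall proteins, changed by 0.73 ± 0.10 in uvr8-1 and −0.00 ± 0.10 in wildtype.

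Falls of wildtype that were absent or reversed in uvr8-1 were found on 3 probe sets, all unpaired. Probe set 263443_at read 7.34, 7.20 and 7.78 in uvr8-1 under UV-B and 7.04, 8.00 and 7.21 in uvr8-1 in white light. In wildtype it read 5.67, 5.87 and 6.13 under UV-B and 7.29, 7.84 and 7.81 in white light. The wildtype UV-B arrays were the only low ones, and the response was 0.03 ± 0.24 in uvr8-1 and −1.76 ± 0.24 in wildtype. Probe set 251041_at changed by 0.18 ± 0.13 in uvr8-1 and −0.81 ± 0.13 in wildtype, where 2 of the 4 group means lay under the dim limit of 3.74 and the white light arrays of the genotypes did not overlap. Probe set 262076_at changed by 0.49 ± 0.13 in uvr8-1 and −0.52 ± 0.13 in wildtype.

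Other than for GH3.3, these positive calls depended on single arrays. Without 1 array, the calls ended in 7 of 12 fits for UGT72E1, 8 for AT3G01720, 7 for 263443_at, 6 for 251041_at and 5 for 262076_at. The highest adjusted p were 0.0751 for UGT72E1 (without wildtype white light replicate 3), 0.0863 for 263443_at (without uvr8-1 white light replicate 3), 0.0678 for 262076_at (without wildtype white light replicate 2), and 0.0759 for AT3G01720 and 0.0622 for 251041_at (both without wildtype UV-B replicate 2). With the block, on the 12 arrays alone, 10 probe sets were positive, 5 of them among the 6, and AT3G01720 was not (adjusted p = 0.0619). Those arrays without the block gave 3 positive calls, and AT3G01720 was called (0.0499). Without wildtype UV-B replicate 3 there were 40 positive calls, and 14 when uvr8-1 UV-B replicate 1 was left out. There were 3 when either of the other wildtype UV-B arrays was left out, 1 and 2 for wildtype white light replicates 2 and 3, and 2 for uvr8-1 white light replicate 1.

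The 5 genes nearest to a positive call were also examined. AT5G59080 had 6.72, 7.39 and 7.10 in uvr8-1 under UV-B and 6.98, 7.62 and 6.98 in uvr8-1 in white light, against 5.93, 5.73 and 6.04 in wildtype under UV-B and 7.21, 7.40 and 7.68 in wildtype in white light. Only its wildtype UV-B arrays were low, yet the difference of 1.41 ± 0.35 did not pass (adjusted p = 0.119). AT3G50520 was at 0.17 ± 0.14 in uvr8-1 and −0.58 ± 0.14 in wildtype. AT4G12070 was at 1.88 ± 0.15 in uvr8-1 and 0.96 ± 0.15 in wildtype, AT1G74680 at 1.06 ± 0.12 in uvr8-1 and 0.32 ± 0.12 in wildtype, and CYP71B24, a cytochrome P450, at 1.22 ± 0.13 in uvr8-1 and 0.47 ± 0.13 in wildtype. Adjusted p for these last 4 differences lay between 0.084 and 0.137.

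The calls were then counted by the size of the wildtype response. Of 1602 probe sets that rose at least 2-fold in wildtype, 128 (7.99%) had a called negative difference. Of 1227 that fell at least 2-fold in wildtype, 1 (0.081%) had a called positive one. Over all probe sets 0.831% had a called negative and 0.0264% a called positive difference. The count of 1 is near that background and is no result about the falls. In uvr8-1, 1400 of the 1602 rises were called in the same direction, 172 were not called and 30 were called as falls. Of the 1227 falls, 1134 were called in the same direction, 93 were not called and 0 were called as rises. Over all probe sets 12.9% were called as rises in uvr8-1 and 19.0% as falls. The median of the uvr8-1 response as a percent of the wildtype response was 99.8% over the rises and 89.2% over the falls. These probe sets were selected by their wildtype values, which also enter the interaction, and the difference between rises and falls was not tested.

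The share of such calls did not climb with the size of the rise. The share with a called negative difference was 6.50% of 893 rises between 1 and 2 log2 units, 12.9% of 396 between 2 and 3, 6.71% of 164 between 3 and 4, 5.21% of 96 between 4 and 5 and 5.66% of 53 over 5. In the highest bin 51 of 53 rises were also called in uvr8-1. The plot by size gives the direction in uvr8-1 for each bin.

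**Figure D4:**
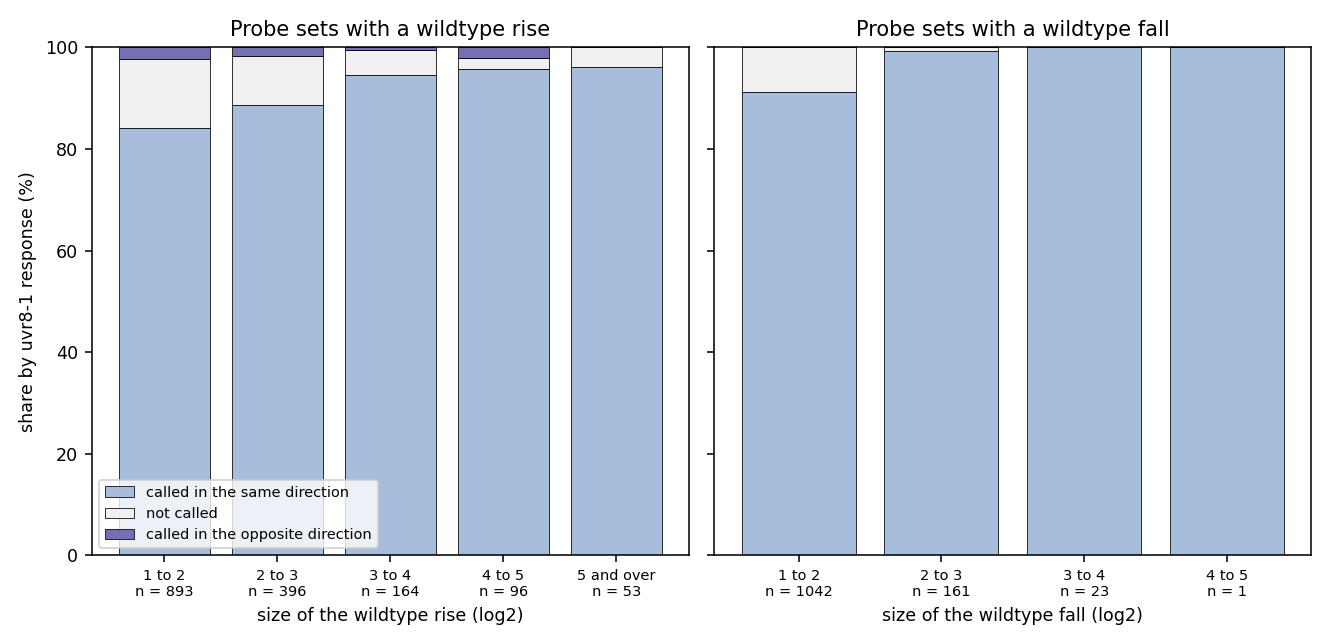
Share of probe sets (y axis, %) by the direction called in uvr8-1, for rises (left) and falls (right) of at least 2-fold in wildtype, binned by the size of the wildtype response (x axis, log2, with the number of probe sets). A call in the same direction takes the larger part of every bin, and calls in the opposite direction appear among rises (30) and not among falls (0).

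Gene lists were read against the 13356 genes with a probe set of their own. A listed gene is called measured where the annotation pairs a probe set with it alone. The others may lie on probe sets paired with several genes (503) or with none (8730) and so go unnamed. Families were formed by patterns in gene names, so members known by locus alone can be missing. Of the 13356 genes, 0.621% had a called negative and 0.0225% a called positive difference. In uvr8-1 11.4% rose and 16.8% fell, and in wildtype 10.8% rose and 16.5% fell.

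Of the 27 genes listed for the UVR8 pathway and light signalling, 3 had a probe set of their own. These were HYH, BIC1 and BIC2, of which 1 rose in uvr8-1 (11.4% of all genes) and all 3 in wildtype (10.8%), and 1 (BIC1) had a called negative difference (0.621%). HYH read 4.48, 6.10 and 5.82 in uvr8-1 under UV-B and 4.15, 3.14 and 3.08 in uvr8-1 in white light. It read 7.58, 8.43 and 8.15 in wildtype under UV-B and 3.53, 2.82 and 4.36 in wildtype in white light. The wildtype UV-B arrays were above all others and uvr8-1 under UV-B lay between them and white light, with rises of 2.01 ± 0.45 in uvr8-1 and 4.49 ± 0.45 in wildtype. The difference of −2.47 ± 0.63 did not pass (adjusted p = 0.134, and between 0.0699 and 0.347 without 1 array).

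Of 25 listed genes of the flavonoid and anthocyanin pathway, 10 were measured. In uvr8-1 0 rose and 1 fell, against 11.4% and 16.8% of all genes, and in wildtype 7 rose, against 10.8%. The 4 called differences were all negative, where 0.621% of all genes were called. The median difference was −1.81, against 0.02 over all genes with a probe set of their own. Besides UGT78D2, the calls were DFR, the reductase that commits to anthocyanins, CHIL, which aids chalcone synthase, and AT1G06000, a flavonol rhamnosyltransferase. DFR was at −1.07 ± 0.42 in uvr8-1 and 2.27 ± 0.42 in wildtype, CHIL at −0.51 ± 0.33 in uvr8-1 and 2.65 ± 0.33 in wildtype, and AT1G06000 at −0.29 ± 0.40 in uvr8-1 and 2.79 ± 0.40 in wildtype. The call of AT1G06000 was lost 6 times of 12 when single arrays were left out, and its adjusted p reached 0.0647 when that array was uvr8-1 white light replicate 2.

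The anthocyanin-modifying genes UF3GT, AT4G14090 and AT5MAT rose in wildtype without a called difference. UF3GT, a glycosyltransferase, had 4.57, 4.12 and 4.02 in uvr8-1 under UV-B and 4.52, 4.25 and 4.07 in uvr8-1 in white light, against 5.48, 6.86 and 5.94 in wildtype under UV-B and 4.53, 4.45 and 3.81 in wildtype in white light. Only the wildtype UV-B arrays stood apart, with replicate 2 highest, and the difference was −1.87 ± 0.44 (adjusted p = 0.0881). The adjusted p was 0.0283 without wildtype UV-B replicate 1. No other fit without 1 array called UF3GT, and the highest was 0.22 (without uvr8-1 white light replicate 1). The glucosyltransferase gene AT4G14090 was at −0.22 ± 0.33 in uvr8-1 and 1.53 ± 0.33 in wildtype (difference −1.75 ± 0.47, adjusted p = 0.163). Only the fit with the block called AT4G14090 (adjusted p = 0.0244), against 0.326 with the index covariate. The acyltransferase gene AT5MAT was at −0.04 ± 0.25 in uvr8-1 and 1.09 ± 0.25 in wildtype. UGT78D1, a flavonol rhamnosyltransferase, was the 1 listed gene that fell in uvr8-1, at −1.39 ± 0.29 in uvr8-1 and −0.25 ± 0.29 in wildtype (difference −1.14 ± 0.41, adjusted p = 0.469).

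The phenylpropanoid and sinapate list, with 8 of 28 genes measured, held 1 negative call (UGT84A1) and 1 positive (UGT72E1), where 0.621% and 0.0225% of all genes were called. UGT84A3, a close relative of UGT84A1 that acts on the same acids, rose by 1.84 ± 0.26 in uvr8-1 and 2.57 ± 0.26 in wildtype, a difference of −0.74 ± 0.37 that did not pass. ALDH2C4, which makes ferulic and sinapic acids, rose by 1.52 ± 0.17 in uvr8-1 and 2.16 ± 0.17 in wildtype. Of 47 genes measured that carry a UDP-glycosyltransferase symbol, 3 were called negative (UGT84A1, UGT78D2, UGT73C1) and 1 positive (UGT72E1), with a median of 0.00. The called rhamnosyltransferase gene AT1G06000, known by locus, is outside this count. Of 13 glutathione transferases, GSTU28 was the 1 call, a negative one. The shares over all genes were again 0.621% negative and 0.0225% positive.

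Of 25 listed auxin genes, 6 were measured, and GH3.3 was the 1 call, a positive one (0.0225% of all genes), with a list median of 0.49. WES1, another auxin-conjugating enzyme gene, had 7.46, 8.06 and 8.18 in uvr8-1 under UV-B and 6.86, 7.09 and 6.81 in uvr8-1 in white light, against 6.47, 6.94 and 6.88 in wildtype under UV-B and 6.61, 7.12 and 6.38 in wildtype in white light. The uvr8-1 UV-B arrays were the highest, but the difference of 0.92 ± 0.34 did not pass (adjusted p = 0.494). AT1G14130, which encodes the auxin oxidase DAO1, rose by 1.75 ± 0.20 in uvr8-1 and 1.18 ± 0.20 in wildtype. GH3.17 went the other way, at −0.37 ± 0.26 in uvr8-1 and 0.49 ± 0.26 in wildtype.

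Of 10 general stress genes measured, 10 rose in uvr8-1 and 8 in wildtype, against 11.4% and 10.8% of all genes. Of the 10, 0 had a called difference, near the share over all genes, so that this count is no result about the list. The median responses were 4.20 in uvr8-1 and 3.81 in wildtype. PUB22, a ubiquitin ligase that restrains immune responses, had the most negative difference of the list, −1.43 ± 0.60 (adjusted p = 0.626). Of 4 photosynthesis genes 3 fell in each genotype, against 16.8% of all genes in uvr8-1 and 16.5% in wildtype. LHCB4.2, of the light-harvesting complex, fell by 1.48 in uvr8-1 and 2.34 in wildtype (difference 0.86 ± 0.41, adjusted p = 0.737). The plot by gene list shows these differences beside those of the families.

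**Figure D5:**
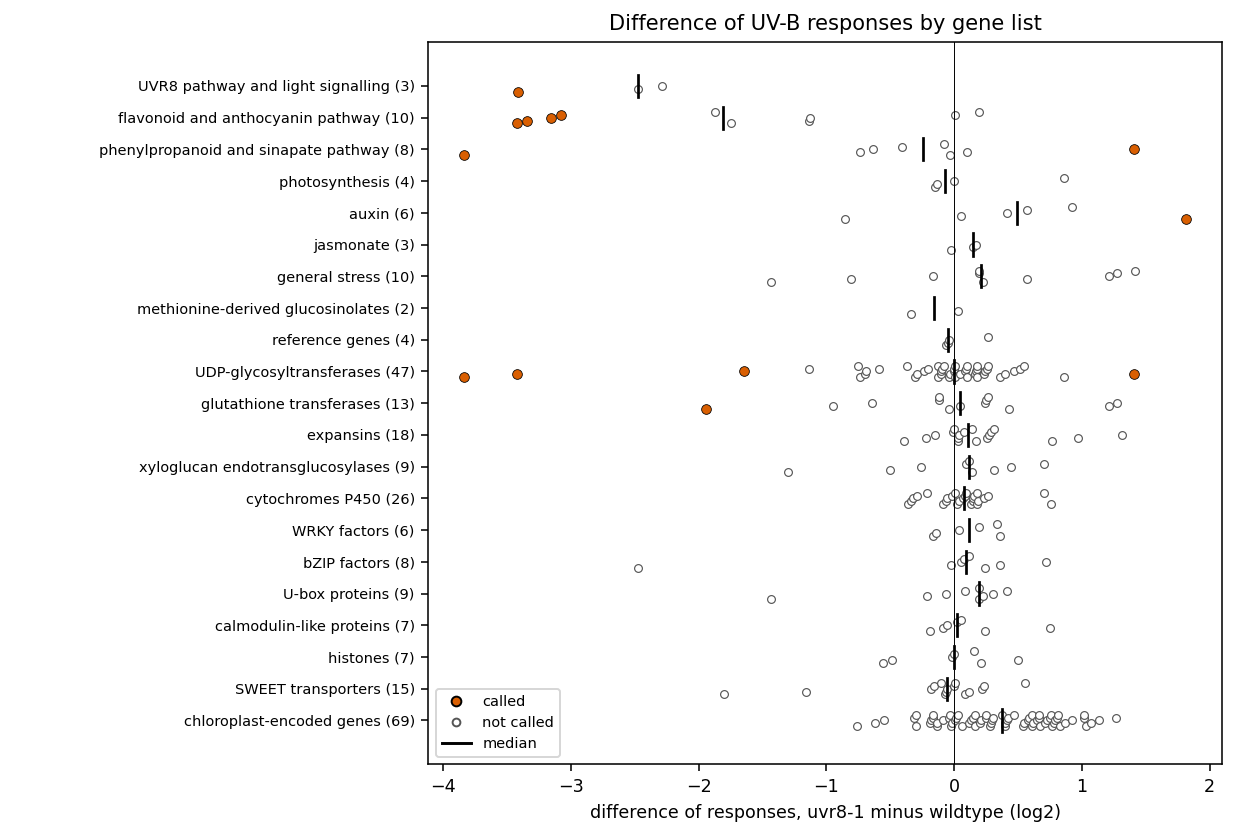
Difference of UV-B responses, uvr8-1 minus wildtype (x axis, log2), for each measured member of the gene lists and families with at least 2 measured members (number in parentheses); filled points are called in the interaction, open points are not, and the vertical bar is the median. The light signalling and flavonoid medians lie at −2.47 and −1.81, and the others between −0.25 and 0.49.

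The interaction made 0 calls among 18 expansins, 9 xyloglucan endotransglucosylases, 26 cytochromes P450, 6 WRKY factors, 8 bZIP factors, 9 U-box proteins, 7 calmodulin-like proteins, 7 histones, 15 SWEET sugar transporters and 69 chloroplast-encoded genes. Nor were there calls among the measured members of the jasmonate (3), methionine-derived glucosinolate (2), photoprotection (1) and clock (1) lists or the only MYB factor measured. With 0.621% of all genes called negative and 0.0225% positive, counts of 0 in groups of these sizes are near the background and are no result about them. Reference genes (4) differed by −0.06 to 0.26. The chloroplast-encoded genes had a median difference of 0.38, with responses of −0.40 in uvr8-1 and −0.63 in wildtype. Markers of roots (1 measured, −0.32) and of guard cells or epidermis (1, −0.04) had no called difference of responses. Both were called as falls in uvr8-1 and not called in wildtype, where 16.8% and 16.5% of all genes fell. No seed or flower marker, B-box factor or small auxin-up RNA was found by name among the genes with a probe set of their own. This does not show that the array lacks them.

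Over the whole series the array medians lay between 4.31 and 4.40. Both genotypes had their weakest UV-B response on replicate 1, with slopes on the mean response of the other genotype of 0.74 in uvr8-1 and 0.79 in wildtype, against 0.95 to 1.04 for replicates 2 and 3. The index of transcript evenness fell by 0.253 under UV-B in uvr8-1 and rose by 0.049 in wildtype. In a bulk leaf sample, fewer cells of a type and less RNA per cell cannot be told apart.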

How the data were processed

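Leaf RNA was hybridised to 1-colour ATH1 arrays. The deposited values are log2 values that the authors made with RMA, per the submitters' processing notes; no source used here gives its version or settings. They ran from 1.99 to 13.1 and were used without further normalisation. Of 22810 probe sets 64 controls were set aside. The annotation pairs 13513 of the other 22746 with 1 gene, 503 with several and 8730 with none. Symbols came from a RefSeq gene table of TAIR10.1, which matched 13436 of the 13513; no coordinates or sequences are given. With 3 arrays a group, their number limits the precision.

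A linear model with group means was fitted over the 15 arrays with limma 3.58.1 in R 4.3.3 (10 residual and 3.09 prior degrees of freedom), and 5 contrasts were tested 2-sided with Benjamini-Hochberg adjustment over 22746 probe sets, called at an adjusted p under 0.05. Errors after ± are standard errors unless SD is written. The code was tested on simulated data. Tables and plots used Python 3.11.15, pandas 2.3.3, numpy 2.4.6 and matplotlib 3.10.9.

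Where a gene had several single-gene probe sets, the one of highest mean stood for it. The rule for named genes took the 25 most negative called genes, all positive calls, up to 6 genes of smallest p per class, up to 4 per list or family, HYH, the 4 most negative unpaired probe sets and the 5 uncalled positive genes of smallest p; AT4G14090, AT5MAT, UF3GT and UGT78D1 were added after their values were seen. Members, lists and families were chosen with earlier results of these data known.

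Deviations from the group means correlated between equally numbered arrays in all 18 pairs of groups and numbers (0.104 to 0.684), against −0.569 to 0.13 for 36 pairs with different numbers, so the numbers pair the arrays, and a fit with the replicate number as a block on the 12 arrays was made. The other alternatives were the 12 arrays alone, an intensity trend, a robust prior, median centring, quantile normalisation, leaving out the dimmest 40%, the index of control probe sets as a covariate, a minimum difference of 1 log2 unit, leaving out single arrays, and, chosen after seeing the data, leaving out all arrays of a replicate number. The index is the mean 3' minus 5' log2 difference of the GAPDH, actin and ubiquitin controls.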

Additional observations from a re-analysis of the deposited data

Results flagged for a closer look

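The interaction compares the response of uvr8-1 with that of wildtype, and all its calls, 189 negative and 6 positive, are differences between the groups' effects. Among the named ones, those in which the genotypes moved in opposite directions with both responses called are 252123_at (−5.75), AT3G56290 (−3.11), AT5G35970 (−3.05), AT1G06690 (−2.69), AT3G24190 (−2.66), AT1G18660 (−2.64), SPPA (−2.63), AT1G66330 (−2.28), AT4G33660 (−2.26), AT4G36530 (−2.23), AT4G29590 (−1.86), AT3G62190 (−1.65) and AT4G03200 (−1.22), which fell in uvr8-1 and rose in wildtype, and 262076_at (1.01), which rose in uvr8-1 and fell in wildtype. The other positive differences are GH3.3 (1.81), 263443_at (1.79), UGT72E1 (1.41), 251041_at (1.0) and AT3G01720 (0.73). Outside the comparison, the 3' to 5' index of the 3 hy5-1 arrays averaged 2.78 log2 units, above the range of the 12 arrays compared (1.77 to 2.36). Those arrays add to the estimate of the spread, and without them the calls numbered 146 negative and 3 positive.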

How the results depend on the processing

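Over the 76 named results and 23 alternatives no difference of responses changed sign. Of 1744 values, 1481 stayed on the same side of the threshold in the same direction, 253 were no longer called and 10 became called. Of the 55 called ones, 39 were called in every fit without 1 array, 46 with the replicate block, 43 without the hy5-1 arrays and 38 with the index covariate. The negative calls numbered 191 with the replicate block, 145 of them among the 189, and the positive calls 10. Apart from the genes named in the report, no named result lost its call in the block fit, which also leaves out the hy5-1 arrays. Without the hy5-1 arrays there were 3 positive calls, 12 falls in uvr8-1 alone and 2 larger falls. With the index covariate there were 1 positive call, 11 reduced rises, 8 falls in uvr8-1 alone and 2 larger falls. The block gave 14 falls in uvr8-1 alone and the intensity trend 1 larger fall. With a response taken as absent under 25% of the other genotype's, 80 rises were reversed and 15 falls were in uvr8-1 alone. The cause of these shifts was not tested. Leaving out 1 array gave 127 to 294 negative and 1 to 40 positive calls, with 57 to 96 lost rises, 11 to 31 reduced rises, 41 to 82 reversed rises, 5 to 83 falls in uvr8-1 alone, 1 to 10 larger falls and 49 to 175 negative differences with a fall in uvr8-1. Leaving out all arrays of replicate 1, 2 or 3, where each group keeps 2 arrays, gave 81, 49 and 77 negative and 3, 0 and 3 positive calls. In the same order the lost rises numbered 45, 25 and 41, the reduced ones 11, 3 and 6 and the reversed ones 16, 20 and 25. Falls in uvr8-1 alone numbered 8, 1 and 5, larger falls 1, 0 and 0, and all negative differences with a fall in uvr8-1 numbered 25, 21 and 30. Median centring and quantile normalisation gave 203 and 187 negative calls. Levels under 3.74 are those of the dimmest 40% of probe sets, and folds that start there are less certain.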

Other observations

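The hy5-1 arrays under UV-B have no white light counterpart, and levels of 7 genes picked after their values were seen are given here. The 2 succinate dehydrogenase subunits parted: SDH1-1 read 7.83, 7.34 and 7.51 in hy5-1, overlapping uvr8-1 under UV-B, while SDH2-1 read 10.07, 9.81 and 9.68 in hy5-1, above every uvr8-1 array and under every wildtype UV-B array. CHIL (4.83, 4.70 and 4.90) and AT5G62210 (3.58, 4.00 and 3.94) were low in hy5-1, whereas AT1G16260 (7.70, 7.93 and 7.38) and AT5G42760 (7.95, 7.64 and 7.65) stood in or near the wildtype UV-B range. GH3.3 read 8.49, 8.30 and 8.30 in hy5-1, under every uvr8-1 UV-B array and above every wildtype one. These levels were not tested here, and the higher 3' to 5' index of the hy5-1 arrays was not accounted for.

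Larger rises in uvr8-1 that missed the threshold included stress genes with 1 array unlike the others. The small heat shock protein gene AT2G29500 had 5.24, 5.27 and 3.93 in uvr8-1 under UV-B and 3.38, 3.33 and 3.36 in wildtype under UV-B. Its difference of 1.42 ± 0.38 had an adjusted p of 0.165. Leaving out uvr8-1 UV-B replicate 3, the array unlike the others, gave 0.0002. No other fit without 1 array called AT2G29500, and the highest adjusted p was 0.36 (without uvr8-1 white light replicate 2). The glutathione transferase gene GSTU22 had 4.68, 5.32 and 3.95 in uvr8-1 under UV-B and 3.59, 3.56 and 3.54 in wildtype under UV-B. The difference was 1.21 ± 0.35 with an adjusted p of 0.216, or 0.00753 without uvr8-1 UV-B replicate 3. Again no other fit without 1 array gave a call, and the adjusted p of GSTU22 reached 0.432 (without uvr8-1 white light replicate 3). GSTU25, a relative of GSTU22, rose by 4.83 ± 0.33 in uvr8-1 and 3.55 ± 0.33 in wildtype, a difference of 1.27 ± 0.46 that did not pass.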
